A study of Homo sapiens with 38 samples.

Results

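Rab GTPases and sorting nexins are the gene families that mark, move and sort endosomal membranes, and their mRNA levels were followed in HCT116 cells, a human colorectal carcinoma line, after silencing of VPS4A, VPS4B or both. Members were all measured genes whose symbol is RAB or SNX followed by a number, which gave 49 Rab genes and 27 sorting nexins, 76 of the 12627 genes in the table. Libraries were made 72 h after transfection from 9 conditions: untransfected cells (NT, 4 libraries), cells given 60 nM of the non-targeting duplex siCTRL#1 (5 libraries), cells given the non-targeting duplex siCTRL#2 (4 libraries), cells given 1 of 2 duplexes against VPS4A (siVPS4A#1 and siVPS4A#2) or against VPS4B (siVPS4B#1 and siVPS4B#2), and cells given a VPS4A and a VPS4B duplex together (siVPS4A+B#1 and siVPS4A+B#2). Each silencing condition had 4 libraries. Each single duplex was given at 30 nM together with 30 nM of siCTRL#1, and each pair held 30 nM of either duplex, so these conditions received the same total amount; the labels do not give the dose of siCTRL#2. The pair siVPS4A+B#1 was made of siVPS4A#2 and siVPS4B#1, and siVPS4A+B#2 of siVPS4A#1 and siVPS4B#2, so single and combined conditions share duplexes. All 9 conditions share the same tumour line, so the values describe a single genetic background.

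Rab proteins are small GTPases that cycle between a GDP-bound form in the cytosol and a GTP-bound form on a particular membrane, where they recruit tethers, motors and fusion factors; Rab5 proteins act on early endosomes, Rab7 on late endosomes and lysosomes, Rab4 and Rab11 on recycling endosomes, Rab1 and Rab2 between the endoplasmic reticulum and the Golgi, and Rab3 and Rab27 on secretory vesicles. Sorting nexins bind phosphoinositides through a PX domain, and many also carry a curved BAR domain that shapes tubules, a FERM domain that reads cargo tails or an RGS domain found at membrane contact sites. VPS4A and VPS4B are paralogous ATPases that take apart ESCRT-III filaments, the machinery that buds vesicles into the late endosome, closes membrane necks and repairs membranes.

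Expression was measured with a targeted amplicon panel that reads each transcript through a single amplicon, so levels are given as reads per 1000000 reads of the library and are compared between conditions for a gene, never between genes. The 37 libraries used held 5090666 to 11035293 reads (median 7561496). A library titled siVPS4A#1 replicate 2 was left out; it held 669257 reads, and VPS4B stood at 1.62 reads per 1000000 in it against 21.4 to 32.1 in the 4 siVPS4A#1 libraries that were used, although its label names VPS4A alone, and what set it apart was not tested. VPS4A fell from 173 to 325 in the NT and siCTRL#1 libraries to 1.63 to 10.5 in the libraries given a VPS4A duplex alone and 3.05 to 33.9 in the combined libraries, and VPS4B fell from 16.3 to 29.0 to at most 1.57 in every library given a VPS4B duplex. Of 8 markers of colorectal epithelium 6 were among the 12627 genes with deposited values, and all 6 were expressed (KRT19 at a median of 2966, EPCAM at 379). The 4 leukocyte markers were not among these genes, so there is no value for them. The endothelial marker PECAM1 had a median of 0.427. Of 5 mesenchymal markers, COL1A1 (median 29.7) and PDGFRB (0.376) had values. Of the 76 members, 73 had a median of at least 10 reads a library. RAB34, RAB36 and SNX32 had medians of 2, 2 and 1 reads, and no difference of the sizes described here was detectable for them at this depth. Fewer cells of a state and less RNA per cell cannot be told apart in such libraries.

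Combined silencing raised 4 members: the early endosomal genes RAB5B and RAB22A and the sorting nexins SNX21 and SNX29. A gene was called when it changed at least 1.5-fold in the same direction, with an adjusted p under 0.05 in limma after Benjamini-Hochberg adjustment over all 12627 genes, in all 4 comparisons of both pairs with NT and with siCTRL#1. These 4 were 5.26% of the members, against 3.96% of all genes, and 0 members were called down, against 4.16% of all genes, so the share of members raised was near that of the table as a whole. With the adjusted p replaced by an unadjusted p the same 4 were called up and 0 down. Silencing of VPS4B alone by both duplexes called 0 members up (0.483% of all genes) and 0 down (0.634%), and silencing of VPS4A alone called 0 up (0% of all genes) and 0 down (0.00792%), with the same counts at an unadjusted p and by DESeq2 and edgeR.

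The median member had a mean log2 fold change over the 4 comparisons of 0.075 after combined silencing, where the median of all genes was -0.034. After VPS4B silencing these medians were 0.1 and -0.003, and after VPS4A silencing 0.011 and -0.001. By organelle or domain class, the median after combined silencing was highest for the 10 sorting nexins outside the BAR, FERM and RGS classes (0.333, 2 of 10 called up). These are grouped by their PX domain, although SNX15 among them also has an MIT domain. The 7 early endosomal Rabs came next (0.299, 2 of 7 called up). The medians were lowest for the 4 Rabs of other roles (-0.321, 0 called) and the 5 retrograde SNX-BAR proteins (-0.243, 0 called). The 4 late endosomal and lysosomal Rabs had a median of 0.212, the 3 endocytic SNX-BAR genes 0.209 and the 14 recycling Rabs 0.12. The 13 Rabs of the endoplasmic reticulum and Golgi had 0.092 and the 2 FERM sorting nexins 0.045. The 3 sorting nexins grouped as RGS (SNX13, SNX14 and SNX19) had 0.034. The 7 secretory Rabs had 0.021 and the 4 recycling SNX-BAR genes -0.095. Each of these classes had 0 called.

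**Figure D1:**
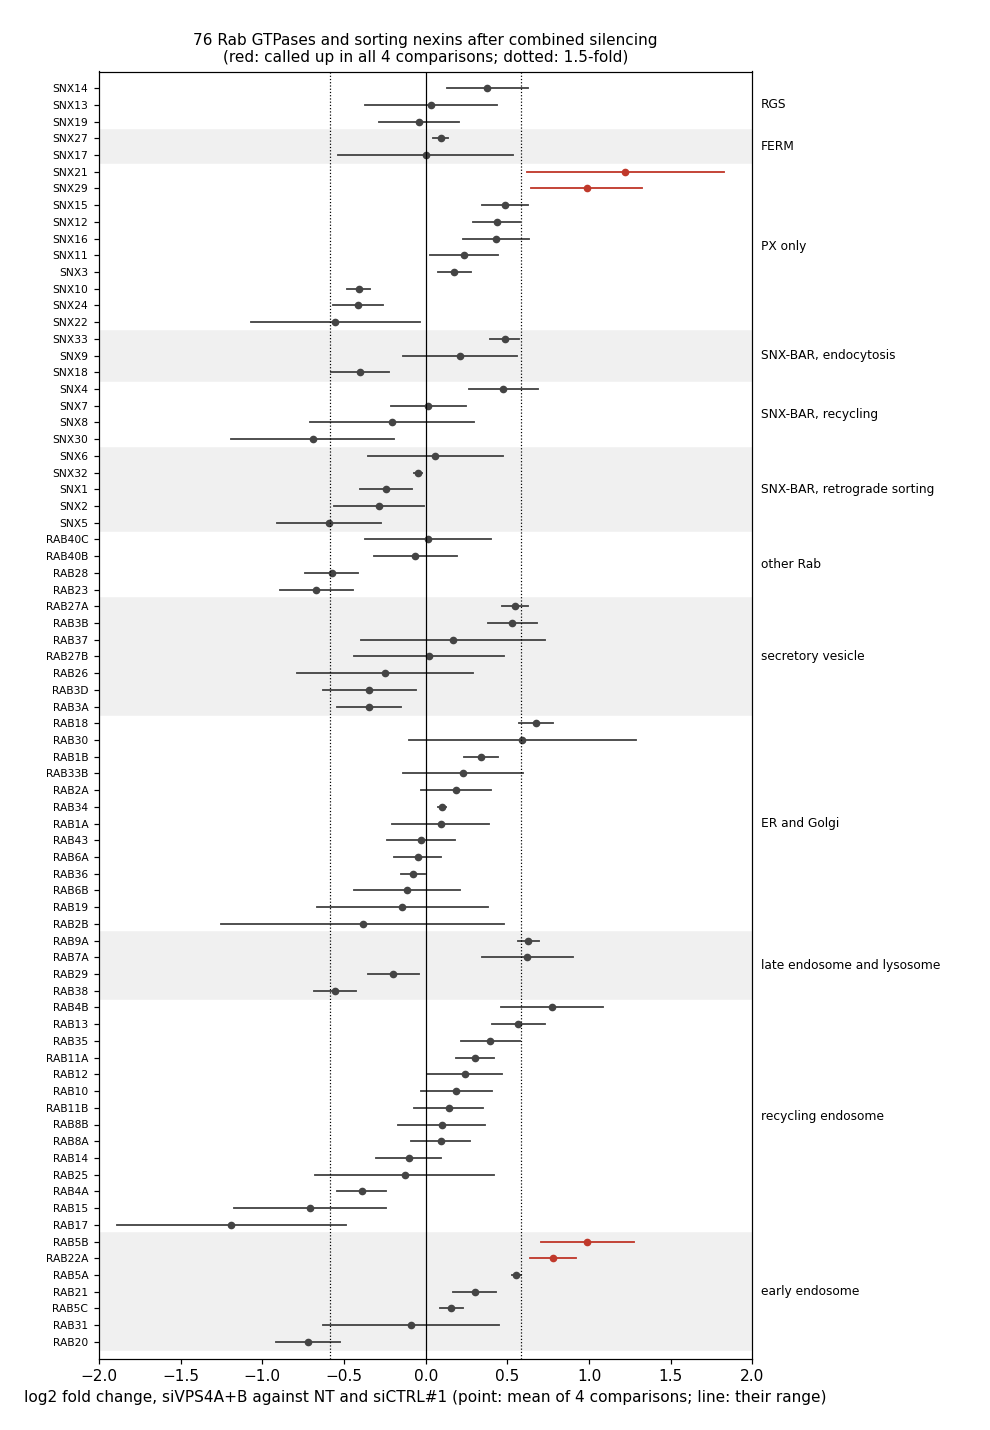
Mean log2 fold change of each of the 76 members over the 4 comparisons of combined silencing with NT and siCTRL#1 (points), with the range of those comparisons (lines), grouped by organelle or domain class; dotted lines mark 1.5-fold. The 4 called genes (red) lie wholly beyond the upper dotted line, and the widest ranges belong to genes such as RAB2B and RAB30 whose values under the 2 pairs were far apart.

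RAB5B, a Rab5 isoform that drives fusion of early endosomes, lies on chromosome 12 (GRCh37, 56367697 to 56390467, plus strand). It stood at 122, 152, 157 and 129 reads per 1000000 in the NT libraries and at 166, 228, 188, 186 and 186 with siCTRL#1. With siVPS4A+B#1 it stood at 300.3, 259.8, 297 and 410.2, and with siVPS4A+B#2 at 313, 325, 412 and 311. All 8 combined libraries lay above all 9 control libraries. The log2 fold changes were 1.16 and 0.70 for siVPS4A+B#1 and 1.27 and 0.82 for siVPS4A+B#2 against NT and siCTRL#1 (SE 0.13 to 0.14, adjusted p at most 5.3e-05). Single duplexes moved it less: against siCTRL#1 the changes were 0.46 with siVPS4A#1, -0.14 with siVPS4A#2, 0.41 with siVPS4B#1 and 0.22 with siVPS4B#2. The siVPS4B#1 libraries, at 251 to 257, also lay above all 9 control libraries. The siVPS4A#1 libraries, at 227 to 299, overlapped the combined ones. With siVPS4A#2 it was at 159 to 183 and with siVPS4B#2 at 193 to 271. The rise was thus not confined to combined silencing. RAB5B was itself lower with siCTRL#2, at 83.5 to 123, than with siCTRL#1 (log2 -0.87 ± 0.13 SE, adjusted p 2.7e-06), so the choice of control moves its value.

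RAB5A and RAB5C, the other isoforms with the same role, were not called. RAB5A stood at 46.1 to 60.7 in NT and 45.7 to 54.2 with siCTRL#1. It reached 59.1, 58.4, 102 and 101 with siVPS4A+B#1 and 63.8, 67.5, 121 and 65.9 with siVPS4A+B#2. Of these combined libraries 6 of 8 lay above every NT and siCTRL#1 library, and 3 of them stood apart from the rest. With siCTRL#2 RAB5A reached 64.2. Its 4 log2 fold changes, 0.53 to 0.58, had adjusted p values of at most 0.00873 but fell short of 1.5-fold. RAB5C gave 0.09 to 0.23 (adjusted p up to 0.552) from levels of 263 to 358 in NT and siCTRL#1 and 303 to 366 after combined silencing. The promoters of the 4 called genes are shown to set beside their common rise, with that of RAB5A, a further Rab5 gene chosen after its values were seen; sequences are the bases before the RefSeq start site in GRCh38.p14, plus strand, with motif letters in capitals (TGAGTCA, the reverse complement of the AP-1 motif, 210 bases before the RAB5B start, and TCACGTGA, the core of the CLEAR element of lysosomal genes, which contains the E-box CACGTG, 122 bases before that of RAB5A).
RAB5B, chr12:55973699-55973948: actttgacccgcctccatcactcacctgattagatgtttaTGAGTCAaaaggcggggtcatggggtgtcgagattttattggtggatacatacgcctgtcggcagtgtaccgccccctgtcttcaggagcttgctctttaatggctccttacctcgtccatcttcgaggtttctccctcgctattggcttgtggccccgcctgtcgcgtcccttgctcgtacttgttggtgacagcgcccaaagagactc
RAB5A, chr3:19946847-19947096: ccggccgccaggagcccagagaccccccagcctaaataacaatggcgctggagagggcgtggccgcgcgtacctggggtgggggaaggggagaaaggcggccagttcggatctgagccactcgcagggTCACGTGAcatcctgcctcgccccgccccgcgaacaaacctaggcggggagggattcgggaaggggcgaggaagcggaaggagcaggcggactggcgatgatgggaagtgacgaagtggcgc
RAB22A, chr20:58309615-58309714: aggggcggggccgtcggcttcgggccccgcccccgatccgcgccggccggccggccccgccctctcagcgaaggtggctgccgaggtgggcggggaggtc
SNX21, chr20:45833699-45833798: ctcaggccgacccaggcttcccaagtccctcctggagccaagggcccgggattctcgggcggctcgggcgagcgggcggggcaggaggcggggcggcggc
SNX29, chr16:11976634-11976733: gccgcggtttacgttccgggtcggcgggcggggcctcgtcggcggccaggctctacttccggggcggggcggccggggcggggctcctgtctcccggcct
Among the 61 members with a promoter in the RefSeq table, the 250 bases before the start held TGACTCA on either strand in 6 (9.84%, against 5.19% of 27305 genes), CACGTG in 5 (8.2%, against 7.73%), TCACGTGA in 2 (RAB5A and RAB21; 3.28%, against 1.04%) and the CRE motif TGACGTCA in 2 (RAB25 and SNX5; 3.28%, against 2.03%). Of the 4 called genes RAB5B alone held any of these motifs in that window. The letters above cover all 250 bases for RAB5B and RAB5A but only the last 100 for RAB22A, SNX21 and SNX29. The letters are a description of these windows and say nothing about binding.

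RAB22A, an early endosomal Rab that acts in sorting and recycling, lies on chromosome 20 (GRCh37, 56884771 to 56942563, plus strand). It stood at 53.7, 49.6, 51.2 and 55.1 in NT and at 56.9, 70.9, 62.2, 61.8 and 67.8 with siCTRL#1. It reached 72.8, 80.0, 125 and 137 with siVPS4A+B#1 and 87.8, 107, 114 and 89.6 with siVPS4A+B#2. The combined libraries were all above the NT and siCTRL#1 libraries, but the siVPS4A+B#1 libraries of replicates 1 and 2 lay close to the highest of these. With siCTRL#2 RAB22A stood at 41.95 to 84.1, which overlapped siVPS4A+B#1. Log2 fold changes ranged from 0.64 to 0.92 (SE 0.15, adjusted p at most 0.000512). With single duplexes against siCTRL#1 they were 0.18, -0.45, 0.09 and -0.03 for siVPS4A#1, siVPS4A#2, siVPS4B#1 and siVPS4B#2, and the smallest adjusted p was 0.344.

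SNX21, a PX-domain protein related to SNX20, lies on the same chromosome (44462438 to 44471915, plus strand). It was at 10.8, 9.85, 12.8 and 12.6 in NT and at 14.7, 9.62, 17.6, 13.2 and 15.6 with siCTRL#1. With siVPS4A+B#1 it was at 19.7, 18.9, 25.9 and 20.5, and with siVPS4A+B#2 at 37.7, 50.4, 38.8 and 46.8. Both pairs were above all NT and siCTRL#1 libraries, and the 2 pairs did not overlap. With siCTRL#2 SNX21 was at 12.55 to 19.3, which overlapped siVPS4A+B#1. The log2 fold changes against siCTRL#1 were 0.62 ± 0.17 (SE, adjusted p 0.00388) and 1.62 ± 0.17 (adjusted p 4.01e-10), and the difference between pairs was -0.998 ± 0.17 (adjusted p 2.61e-05). siVPS4A#1, the VPS4A duplex of siVPS4A+B#2, gave 26.8, 43.8, 24.6 and 37.8 on its own (1.14 ± 0.17 against siCTRL#1, adjusted p 6.25e-07). The other VPS4A duplex gave 12.2 to 15.8, within the range of the controls (0.04 ± 0.17, adjusted p 0.987).

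SNX29, a sorting nexin with a PX domain, lies on chromosome 16 (GRCh37, 12070591 to 12668144, plus strand). It stood at 7.41, 12.6, 9.82 and 11.2 in NT and at 12.6, 14.2, 15.1, 13.5 and 13.6 with siCTRL#1. It reached 28.2, 22.2, 29.8 and 27.4 with siVPS4A+B#1 and 21.2, 22.8, 24.3 and 19.5 with siVPS4A+B#2, and no combined library overlapped the controls. The log2 fold changes were 0.65 to 1.32 (SE 0.16, adjusted p at most 0.00104). Of the single duplexes siVPS4B#1 raised it against both controls (0.62 ± 0.16 against siCTRL#1, adjusted p 0.00365), with libraries at 24.6, 23.8, 24.0 and 15.1. siVPS4B#2, against the same mRNA, left it at 11.0 to 15.1, and the difference between these duplexes was 0.78 ± 0.16 (adjusted p 0.00045).

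**Figure D2:**
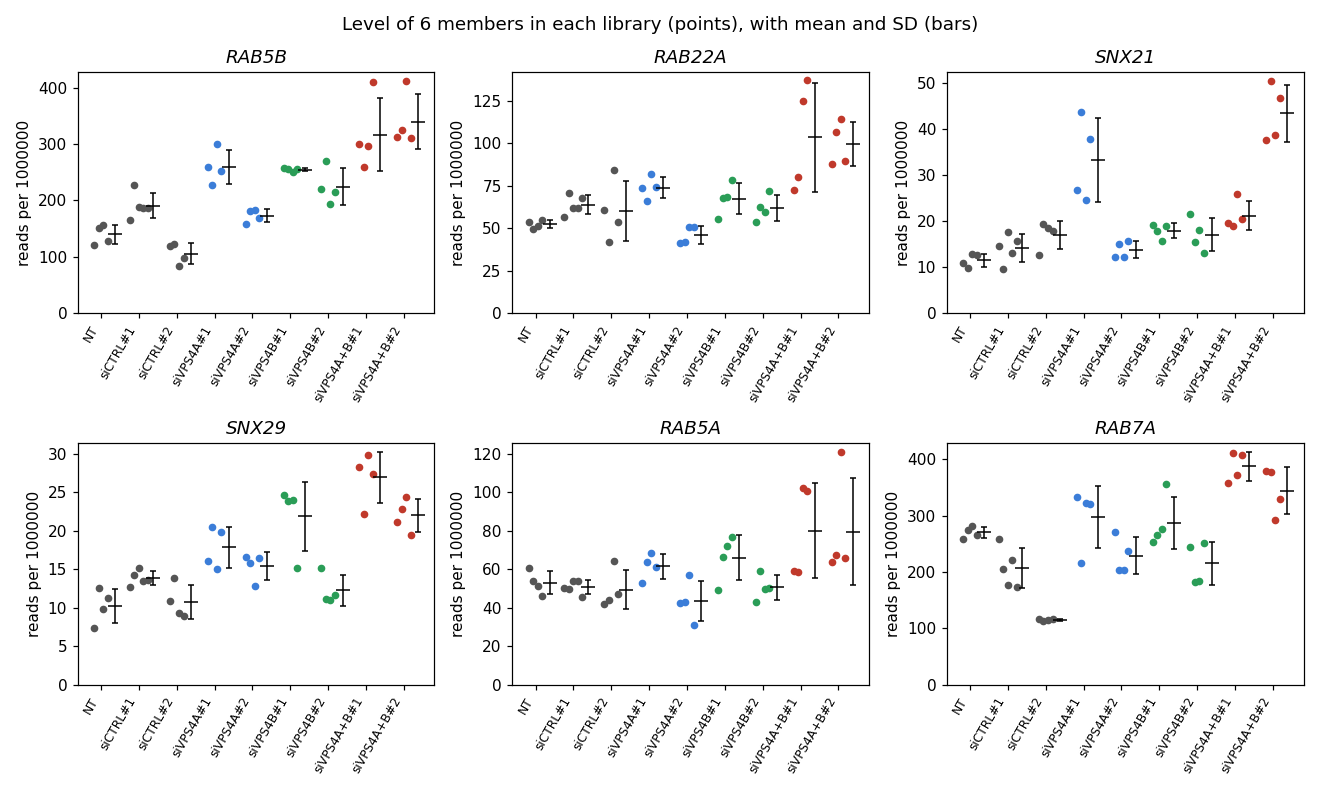
Levels of RAB5B, RAB22A, SNX21, SNX29, RAB5A and RAB7A in reads per 1000000 in each library (points) of the 9 conditions, with the mean and SD of each condition (bars; grey controls, blue VPS4A, green VPS4B, red both). In the upper row and for SNX29 and RAB7A the red points lie above those of NT and siCTRL#1, and RAB7A with siCTRL#2 lies near 115, below every other condition.

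The smallest fold among the 4 comparisons was 1.63 for RAB5B, 1.57 for SNX29, 1.56 for RAB22A and 1.54 for SNX21, and just outside the threshold it was 1.48 for RAB18 and RAB9A and 1.44 for RAB5A. The count is sensitive to settings near this threshold: it was 0 with libraries scaled to total reads, where 1 member (RAB17) was called down, and 2 (SNX21 and SNX29) without replicate 4. SNX21 was also lost without replicate 2 and RAB22A without replicate 3, so that SNX29 alone was called whichever replicate was left out. It was 11 with no fold threshold (RAB13, RAB18, RAB22A, RAB27A, RAB4B, RAB5A, RAB5B, RAB7A, RAB9A, SNX21 and SNX29), with 5 called down (RAB17, RAB20, RAB23, RAB28 and RAB38). DESeq2 and edgeR each called the 4 genes and RAB9A.

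RAB7A, RAB9A, RAB4B and SNX15 also separated from the NT and siCTRL#1 libraries without meeting the call. RAB7A, which drives maturation and fusion of late endosomes with lysosomes, stood at 259, 275, 281 and 265 in NT and at 258, 205, 177, 222 and 173 with siCTRL#1. It was at 359, 412, 373 and 408 with siVPS4A+B#1 and at 379, 377, 292 and 329 with siVPS4A+B#2, above all 9 control libraries. Log2 fold changes were 0.90 and 0.73 against siCTRL#1 but 0.52 and 0.34 against NT (SE 0.13, adjusted p at most 0.0278), since siCTRL#1 itself lay below NT (-0.38 ± 0.13, adjusted p 0.0295). RAB9A, which returns receptors from late endosomes to the Golgi, was at 3.80 to 6.34 in NT and siCTRL#1. After combined silencing it was at 6.83 to 11.7, with log2 fold changes of 0.56 to 0.69 (adjusted p at most 0.0115). All 8 combined libraries were again above the NT and siCTRL#1 libraries. With siCTRL#2 RAB9A was at 3.75 to 7.84, which overlapped both pairs. RAB4B, of the fast recycling route, was at 20.2 to 33.5 in NT and siCTRL#1. After combined silencing it was at 36.3 to 51.3 (log2 fold changes 0.46 to 1.09, adjusted p at most 0.0049). SNX15, which joins a PX domain to an MIT domain like that of the VPS4 proteins, was at 25.9 to 40.3 and at 40.4 to 56.1 (0.34 to 0.62, adjusted p up to 0.0562). Their classes did not move together: of the other late endosomal and lysosomal Rabs, RAB38 had log2 fold changes of -0.69 to -0.43 (adjusted p at most 0.0357) and RAB29 of -0.36 to -0.04 (adjusted p up to 0.861).

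Counting overlap alone, 8 members (RAB22A, RAB4B, RAB5B, RAB7A, RAB9A, SNX15, SNX21 and SNX29) had all 8 combined libraries above all 9 NT and siCTRL#1 libraries, 10.5% of members against 4.19% of all genes. In the other direction RAB20, a Rab of phagosome maturation, was the 1 member with all combined libraries below all controls, where the background was 3.79%. It lay at 26.2 to 51.0 in controls and 17.0 to 24.5 after combined silencing, with log2 fold changes of -0.52 to -0.92 and adjusted p values of at most 0.0121, and it missed the call since its smallest fold was 1.44. RAB4B, SNX15, RAB20, RAB38 and RAB29, and RAB3A, RAB10, SNX17, RAB15 and RAB25 described further on, were singled out after their values were seen.

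Of the remaining members that mark organelles 0 were called. The mean log2 fold change over the 4 comparisons was 0.30 for RAB11A of the slow recycling route (0.19 to 0.42) and -0.39 for RAB4A, the relative of RAB4B (-0.54 to -0.24). RAB1A, of transport from the endoplasmic reticulum to the Golgi, gave 0.09 (-0.20 to 0.39), a sign that turned to -0.03 when libraries were scaled to total reads. RAB27A, which docks secretory lysosomes and takes part in exosome release, gave 0.55 (0.47 to 0.62, adjusted p at most 0.0165), with 7 of 8 combined libraries above all controls, whereas its paralog RAB27B gave 0.02 (-0.44 to 0.48), with a sign that turned under total reads (-0.07) and in edgeR (-0.01).

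The retromer-linked SNX-BAR proteins, which pull tubules from endosomes towards the Golgi, had mean changes of 0.06 or lower. SNX1 gave -0.24 (-0.40 to -0.08) and its partner SNX2 -0.29 (-0.56 to -0.01). SNX5, which binds cargo with SNX1 or SNX2, was at 186 to 221 in NT and 132 to 176 with siCTRL#1, and at 95.8 to 123 with siVPS4A+B#1 and 89.8 to 166 with siVPS4A+B#2, so the second pair overlapped the controls. Its mean change was -0.59 (-0.91 to -0.27), with adjusted p up to 0.162. SNX6, the paralog of SNX5, gave 0.06 (-0.36 to 0.47), and -0.06 when scaled to total reads. SNX3, a retromer partner, gave 0.18 (0.08 to 0.28), the retromer adaptor SNX27 0.09 (0.05 to 0.14, and -0.03 under total reads) and the endocytic SNX9 0.21 (-0.14 to 0.56).

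Duplexes against the same mRNA differed in many members, so single conditions were read duplex by duplex; in these counts a member had to pass 1.5-fold and the adjusted p against both NT and siCTRL#1. siVPS4A#1 raised 4 members, RAB19, RAB3A, SNX11 and SNX21 (5.73% of all genes rose), and lowered 2, RAB2B and SNX10 (8.85%). siVPS4A#2 raised 0 (0% of all genes) and lowered 0 (0.0317%), and both counts were also 0 at an unadjusted p and by DESeq2 and edgeR. siVPS4B#1 raised RAB13, RAB27B, RAB30 and SNX29 (3.7%) and lowered RAB17 (5.23%), and siVPS4B#2 raised RAB26 (1.45%) and lowered 0 (2.36%, and 0 at an unadjusted p); DESeq2 and edgeR each called 1 member in either direction. The RAB26 call was lost without replicate 1 or replicate 2 and with the library left out included (0 in each case). siVPS4A+B#1 raised 10, RAB13, RAB18, RAB22A, RAB30, RAB3B, RAB4B, RAB5B, RAB9A, SNX21 and SNX29 (7.39%), and lowered 4, RAB15, RAB17, RAB23 and SNX22 (7.3%). siVPS4A+B#2 raised the 4 genes described above (8.1%) and lowered RAB2B and SNX30 (10.9%). The 10 members raised by siVPS4A+B#1 were 13.2% of members and the 4 raised by siVPS4B#1 were 5.26%, both above the share of all genes, and the other counts were at or below it. Without replicate 1, the members changed in either direction went from 6 to 11 for siVPS4A+B#2 and from 5 to 3 for siVPS4B#1.

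RAB2B, a Golgi Rab encoded on chromosome 14 (GRCh37, 21927179 to 21945119, minus strand), was lowest wherever siVPS4A#1 was given. It was at 37.5, 29.7, 33.7 and 30.5 in NT and 32.8, 30.8, 31.7, 27.5 and 35.0 with siCTRL#1. It dropped to 20.5, 14.0, 13.3 and 16.6 with siVPS4A#1 and to 12.9, 12.6, 12.8 and 14.4 with siVPS4A+B#2, and neither condition overlapped any control. The changes against siCTRL#1 were -0.96 ± 0.13 (SE, adjusted p 1.62e-07) and -1.17 ± 0.14 (adjusted p 3.36e-09). With siVPS4A#2 it was at 23.5 to 34.4 (-0.14, adjusted p 0.937), and with the pair siVPS4A+B#1 at 34.7 to 52.5 (0.48 ± 0.14, adjusted p 0.0047), so the 2 pairs moved in opposite directions and differed by 1.65 ± 0.14 (adjusted p 3.86e-12). With the library left out for its label included, the siVPS4A#1 change was -0.56 and no longer passed 1.5-fold; the count of members changed by siVPS4A#1 then fell from 6 to 3 (RAB13, SNX10 and SNX21).

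SNX30, a partner of SNX4 in recycling, was also lowest with siVPS4A+B#2. It was at 23.6 to 42.0 in NT and at 28.1 to 30.7 with siCTRL#1. With siVPS4A+B#2 it fell to 13.4, 12.8, 14.3 and 11.8, below every other condition (-1.14 ± 0.15 against siCTRL#1, adjusted p 5.85e-08). siVPS4A#1 alone gave 18.6 to 23.8 (-0.48 ± 0.15, adjusted p 0.00948), and siVPS4A+B#1 gave 19.0 to 30.0 (-0.19 ± 0.15, adjusted p 0.327). SNX10, a PX-domain protein of endosomes and lysosomes, was at 5.46 to 7.85 in NT and siCTRL#1 and at 1.71 to 4.14 with siVPS4A#1 (-1.11 ± 0.19 against siCTRL#1, adjusted p 6.68e-06), while siVPS4A#2 left it at 5.89 to 7.65. RAB19, a Golgi Rab, was at 1.31 to 2.75 in these controls and at 4.59 to 6.19 with siVPS4A#1 (1.12 ± 0.20, adjusted p 1.41e-05); with the library left out included, its change was 0.54 (adjusted p 0.203).

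RAB17, an epithelial Rab of transcytosis, had the lowest mean change of the 76 members after combined silencing, -1.19, without passing the call. It stood at 17.9, 13.4, 13.6 and 9.82 in NT and at 8.42, 9.38, 5.93, 9.70 and 5.30 with siCTRL#1, and it was lower after transfection of the non-targeting duplex (-0.65 ± 0.19, adjusted p 0.0147). With siVPS4B#1 it was at 4.88, 3.98, 3.20 and 3.71 and with siVPS4A+B#1 at 4.83, 1.98, 1.79 and 3.66, below all 9 control libraries, with changes against siCTRL#1 of -0.91 ± 0.19 (adjusted p 0.000376) and -1.25 ± 0.19 (adjusted p 1.42e-06). siVPS4A+B#2 gave 3.61 to 8.46, which overlapped siCTRL#1 (-0.49 ± 0.19, adjusted p 0.0325). RAB30, a Golgi Rab, went the other way with the same duplex: it was at 5.59 to 11.1 in NT and siCTRL#1, at 11.7 to 15.5 with siVPS4B#1 (0.62 ± 0.17, adjusted p 0.00501) and at 14.9 to 21.1 with siVPS4A+B#1 (0.94 ± 0.17, adjusted p 2.0e-05). With siVPS4A+B#2 it stayed at 6.09 to 10.2. RAB27B rose with siVPS4B#1 from 2.36 to 5.20 in controls to 5.86 to 6.99 (0.62 ± 0.17, adjusted p 0.00574), and with siVPS4B#2 it was at 2.68 to 4.22. SNX22, a small PX-domain protein, was lowered by siVPS4A+B#1 (-0.86 ± 0.24 against siCTRL#1, adjusted p 0.00382), a call lost when the library left out was included (adjusted p 0.12).

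**Figure D3:**
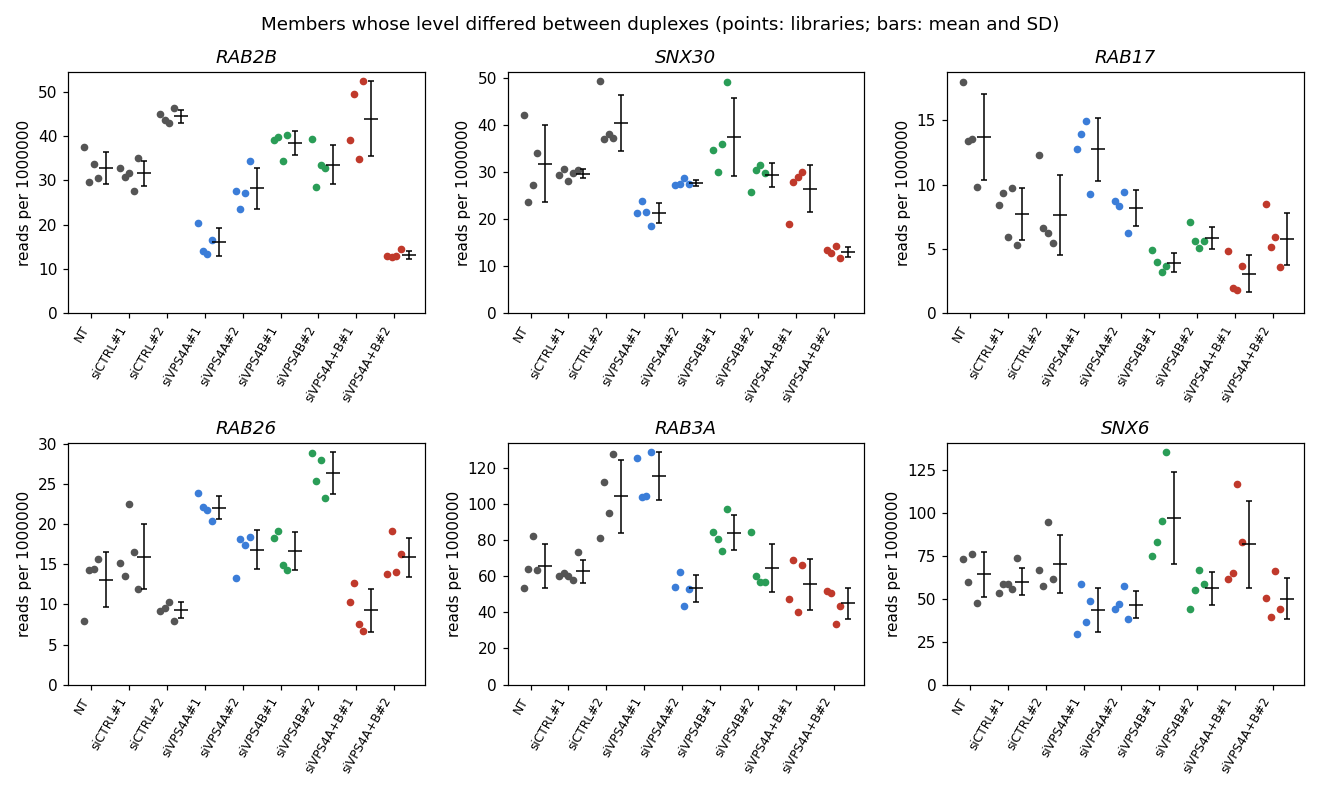
Levels of RAB2B, SNX30, RAB17, RAB26, RAB3A and SNX6 in reads per 1000000 in each library (points) of the 9 conditions, with the mean and SD of each condition (bars; grey controls, blue VPS4A, green VPS4B, red both). RAB2B is low with siVPS4A#1 and siVPS4A+B#2 only, and RAB17 is highest in NT and siVPS4A#1.

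The duplexes were also tested directly against each other. siVPS4A#1 exceeded siVPS4A#2 in 10 members (RAB17, RAB19, RAB22A, RAB37, RAB3A, RAB40B, RAB5B, SNX11, SNX21 and SNX33, where 9.92% of all genes did so) and fell below it in 3 (RAB2B, SNX10 and SNX8, 12.3%). siVPS4B#1 exceeded siVPS4B#2 in 6 (RAB27B, SNX15, SNX17, SNX29, SNX6 and SNX9, 7.89%) and fell below it in 2 (RAB26 and SNX19, 7.25%). The pair siVPS4A+B#1 exceeded siVPS4A+B#2 in 7 (RAB27B, RAB2B, RAB30, RAB31, SNX17, SNX30 and SNX6, 9.92%) and fell below it in 5 (RAB17, RAB19, RAB26, SNX21 and SNX22, 7.53%). SNX17, the FERM-domain adaptor of integrin recycling, was at 98.3 to 138 with siVPS4B#1 and 66.1 to 80.9 with siVPS4B#2, and at 101 to 129 and 50.6 to 74.1 with the pairs that contain them, and its differences were 0.67 ± 0.12 (adjusted p 3.53e-05) and 0.88 ± 0.12 (adjusted p 1.68e-07). SNX6 followed the same order, at 74.7 to 135 with siVPS4B#1 and 43.7 to 66.9 with siVPS4B#2 (0.76 ± 0.16, adjusted p 0.000435).

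The control conditions differed among themselves in members too. siCTRL#1 raised RAB37 and SNX8 against NT (4.84% of all genes rose) and lowered RAB17 and RAB25 (4.21%). siCTRL#2 raised 6 members against NT (RAB12, RAB3A, RAB8B, SNX16, SNX8 and SNX9, 6.07%) and lowered 7 (RAB15, RAB17, RAB25, RAB27A, RAB3B, RAB7A and SNX22, 10.5%). Against siCTRL#1, siCTRL#2 raised RAB3A (5.84%) and lowered 10 members (RAB15, RAB19, RAB26, RAB27A, RAB33B, RAB37, RAB3B, RAB5B, RAB7A and SNX22, 11%). RAB7A stood at 116.5, 113, 115 and 117 with siCTRL#2, below every NT and siCTRL#1 library (-1.22 ± 0.13 against NT, adjusted p 1.24e-09). RAB15, of transferrin receptor recycling, was at 1.59 to 2.74 with siCTRL#2, at 3.85 to 7.26 in NT and at 6.23 to 11.2 with siCTRL#1. RAB25, an epithelial relative of Rab11, was at 195 to 264 in NT and at 96.95 to 197 with siCTRL#1, so the groups overlapped although the fitted difference passed (-0.72 ± 0.17, adjusted p 0.00343).

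Whether combined silencing did more than the sum of its single duplexes was tested as the log2 effect of the pair minus those of its VPS4A and its VPS4B duplex, all against siCTRL#1. For siVPS4A+B#1, RAB22A and RAB10 exceeded the sum (3.82% of all genes did) and RAB26 and SNX1 fell below it (2.38%). For siVPS4A+B#2, RAB35 and SNX8 exceeded it (9.64%), and RAB13, RAB17, RAB19, RAB26, RAB30, RAB37, RAB3A and SNX30 fell below it (8.63%). In both pairs together 0 members exceeded the sum (2.48% of all genes; 0 also by DESeq2 and edgeR, and 1, RAB31, at an unadjusted p) and RAB26 fell below it (1.2%).

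RAB22A exceeded the sum by 1.02 ± 0.21 (SE, adjusted p 0.00157) in siVPS4A+B#1 and by 0.49 ± 0.21 (adjusted p 0.0969) in siVPS4A+B#2. The effect of siVPS4A+B#1 itself against siCTRL#1 was 0.66. Its sum is lowered by siVPS4A#2, which gave 41.3 to 50.8 against 56.9 to 70.9 with siCTRL#1. RAB10, of GLUT4 and basolateral transport, was at 126 to 167 with siCTRL#1, at 103 to 141 with siVPS4A#2, at 119 to 179.5 with siVPS4B#1 and at 155 to 247 with siVPS4A+B#1, and it exceeded the sum by 0.83 ± 0.20 (adjusted p 0.00704). The libraries of its pair overlapped those of siCTRL#1, as did those of the single duplexes.

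RAB26, of regulated secretion, was highest with siVPS4A#1 and siVPS4B#2 given singly and not with their pair. It stood at 7.97, 14.4, 14.4 and 15.7 in NT and at 15.2, 13.6, 22.5, 16.5 and 11.9 with siCTRL#1. siVPS4A#1 gave 23.9, 22.2, 21.8 and 20.4, siVPS4B#2 gave 29.0, 25.4, 28.1 and 23.3, and their pair gave 13.9, 19.2, 14.1 and 16.4. The pair thus lay within the range of siCTRL#1 and below both of its single duplexes, and it differed from the sum by -1.23 ± 0.25 (SE, adjusted p 0.000353). In the other pair siVPS4A#2 gave 13.3 to 18.5, siVPS4B#1 14.4 to 19.1 and the pair 6.74 to 12.6, which differed from the sum by -0.84 ± 0.25 (adjusted p 0.0338). This call in both pairs was lost with the library left out included, with only the compared conditions fitted and without replicate 1, 2, 3 or 4; without replicate 4, RAB22A was instead above the sum and RAB19 below it in both pairs. RAB3A, of regulated exocytosis, showed a like pattern in siVPS4A+B#2 alone: it was at 57.6 to 73.5 with siCTRL#1, at 104 to 128.5 with siVPS4A#1, at 56.7 to 84.6 with siVPS4B#2 and at 33.6 to 51.9 with the pair, which differed from the sum by -1.39 ± 0.22 (adjusted p 8.04e-06).

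**Figure D4:**
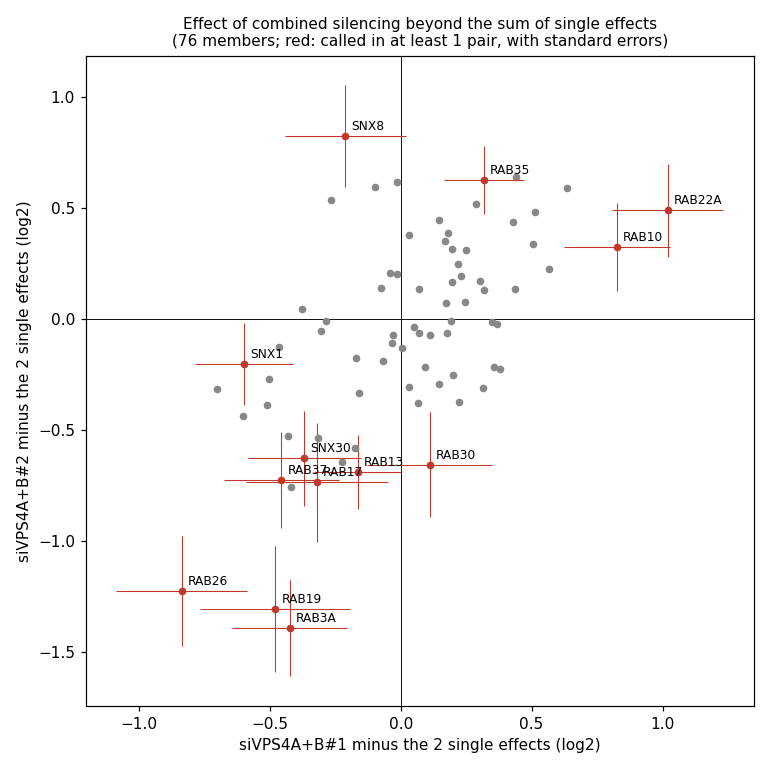
Log2 effect of each pair minus the log2 effects of its single duplexes for the 76 members, with siVPS4A+B#1 on the horizontal and siVPS4A+B#2 on the vertical axis; members called in at least 1 pair are red, named and drawn with standard errors. RAB22A and RAB10 lie to the right, and RAB26, RAB19 and RAB3A lie lowest.

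The genes that load, switch and read Rab proteins were taken from lists by function. Of 149 measured, 5 were called up and 1 down after combined silencing, with a median mean log2 fold change of 0.039, against 3.96% up and 4.16% down and a median of -0.034 over all genes. Of 51 Rab effectors 3 rose, OPTN, RAB11FIP5 and PLEKHM1. OPTN, which links Rab8 to autophagy cargo, went from 16.8 to 31.0 (median 22.4) in the NT and siCTRL#1 libraries to 41.2 to 139.5 (median 74.0), with log2 fold changes of 1.17 to 2.07 (mean 1.62, adjusted p at most 6.82e-07). RAB11FIP5, a Rab11 effector, went from 31.0 to 59.4 to 78.3 to 112 (mean 1.09) and PLEKHM1, a Rab7 effector of lysosome fusion, from 32.2 to 58.7 to 73.5 to 113 (mean 0.99). None of these 3 genes overlapped between the groups. Among all genes 4.19% had every combined library above every NT and siCTRL#1 library. The 3 genes were picked as the largest called changes in these same libraries, so their separation is no further support. Of 30 GTPase-activating proteins TBC1D17 rose (mean 0.95), of 35 exchange factors RPGR fell (-0.78), and of 18 COMMD and WASH complex genes COMMD5 rose (0.69). Of the 8 prenylation and GDI genes and the 7 retromer and retriever genes 0 were called. The total of 6 was 10 in DESeq2 and 10 without replicate 3. TBC1D17, RPGR and COMMD5 are named because each is the lone call of its list.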

How the data were processed

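HCT116 libraries (38, in 9 conditions) were sequenced by the authors with an amplicon panel on an Ion Proton instrument and mapped to hg19, with reads counted by HTSeq 0.6.0. The authors deposited a signal value per gene, the share of a library's reads, for 12627 RefSeq genes, 12474 of which matched a symbol; 153 did not. Whole reads were recovered by dividing each value by the library's smallest step. All low values and all values printed with enough digits (47.4% of values) came out within 0.1 of a whole read. For siVPS4B#1 replicate 2 and siCTRL#1 replicate 5 the step (1 in 9916452 and 1 in 10029776) was close to a round decimal unit. In these libraries the check cannot tell reads from printed decimals. Intervals and spreads rest on these counts, without molecular identifiers, and cover counting and replicate error only.

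Reads were scaled by TMM factors (0.881 to 1.1) in edgeR 4.0.16, turned into log2(reads per 1000000 + 1) and fitted with limma 3.58.1 (trend) in R 4.3.3 over all genes and the 37 libraries without siVPS4A#1 replicate 2, with condition and replicate number as terms. Fold changes are on this log2 scale, which understates changes of low genes. The labels give replicate numbers as batches, and libraries with the same number deviated together (mean correlation of deviations 0.159 over 137 pairs, against -0.0461 over 471 pairs of different numbers). The study describes 4 independent biological replicates. Replicate number 5 occurs for siCTRL#1 and siVPS4A#1 only, and the labels do not say whether it was a further independent experiment. p-values were adjusted over all genes by Benjamini-Hochberg. Data were also simulated for combined silencing over 12627 genes. There limma called 84% of 100 genes raised 2-fold and 68% of 100 lowered to 0.5, with 0 wrong calls. The changed genes were drawn from well-covered genes only and had the same fold in both pairs. No replicate effect or shift in scaling was put in. These rates therefore do not cover members with few reads and do not test the scaling. Alternatives were DESeq2 1.42.0, edgeR, other scalings, filters, pseudocounts (0.1) and fold thresholds, leaving out each replicate, and only the compared conditions. Figures were drawn with matplotlib 3.10.9.

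The members, gene lists and tests were chosen with earlier results of these data known. By rule, named genes were members called for any target, textbook organelle markers, the 2 largest changes per direction in each single condition, those beyond the sum in both pairs, and the 3 largest called changes among other trafficking genes; others are stated as chosen after their values were seen. Coordinates of genes are GRCh37 and promoters RefSeq GRCh38.p14. No authors' comparison columns were in the file.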

Additional observations from a re-analysis of the deposited data

Results flagged for a closer look

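Among 252 groups of 4 or 5 libraries over the 28 named members, 16 held a library far from the others, where chance gives about 1 in 20. After combined silencing, replicate 3 with siVPS4A+B#2 was high for RAB5A (121, the others 63.8 to 67.5) and RAB5B (412, the others 311 to 325), replicate 3 with siVPS4A+B#1 for RAB1A (79.6, the others 59.6 to 62.2), replicate 1 with siVPS4A+B#1 for RAB9A (11.7, the others 7.45 to 7.76) and replicate 4 with siVPS4A+B#2 for RAB2B (14.4, the others 12.6 to 12.9).

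With single duplexes, replicate 4 of siVPS4B#1 was low for SNX29 (15.1, the others 23.8 to 24.6) and high for SNX2 (48.7, the others 33.6 to 35.2), replicate 3 of siVPS4A#2 was high for SNX2 (44.4, the others 32.3 to 34.2) and SNX30 (28.6, the others 27.1 to 27.4), replicate 3 of siVPS4A#1 was low for RAB7A (216, the others 321 to 332) and replicate 4 high for RAB19 (6.19, the others 4.58 to 4.64). In controls, siCTRL#2 replicate 1 was high for RAB17 (12.3, the others 5.47 to 6.6) and SNX30 (49.3, the others 37 to 38), siCTRL#1 replicate 5 for SNX6 (73.7, the others 53.4 to 58.5), and NT was low for SNX10 in replicate 4 (5.46, the others 6.76 to 6.98) and for SNX2 in replicate 3 (26.6, the others 29.5 to 29.9). What set these libraries apart was not tested.

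Effects of a pair that differed from the sum of its single duplexes in limma were, for siVPS4A+B#1, 1.02 for RAB22A, 0.83 for RAB10, -0.84 for RAB26 and -0.60 for SNX1. For siVPS4A+B#2 they were 0.63 for RAB35, 0.82 for SNX8, -1.31 for RAB19, -0.66 for RAB30, -0.69 for RAB13, -0.74 for RAB17, -1.23 for RAB26, -0.73 for RAB37, -1.39 for RAB3A and -0.63 for SNX30.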

How the results depend on the processing

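Members raised by both siVPS4A+B pairs numbered 4; the count was 0 under total reads scaling, which moved the median of all genes by -0.115 (log2), 2 to 6 leaving out a replicate (RAB5B and RAB22A lost without replicate 4, SNX21 without replicate 2, RAB22A without replicate 3), 11 with no fold threshold and 0 at 2-fold. With no replicate block it stayed at 4, but RAB9A replaced SNX21. Members lowered numbered 0; the count was 1 under total reads, 0 to 2 leaving out a replicate and 5 with no fold threshold. Both siVPS4B duplexes raised 2 members (RAB13 and RAB4B) with no fold threshold. The 1 member beyond the sum in both pairs (RAB26) became 0 with siVPS4A#1 replicate 2 included, with only the compared conditions and at 2-fold, and 0 to 2 leaving out a replicate. In the replicate block comparison no other count of calls moved by over 1.5 times.

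Alternatives for the following counts were chosen after seeing the data. Changed members with no fold threshold and at 2-fold were, for siVPS4A#1 (6), 15 and 3, for siVPS4A+B#1 (14), 34 and 1, for siVPS4A+B#2 (6), 24 and 3, for siVPS4B#1 (5), 13 and 0, and for siVPS4B#2 (1), 4 and 0. With siVPS4A#1 replicate 2 included, siVPS4A#1 gave 3, siVPS4B#2 0 and siCTRL#1 against NT 2. Leaving out a replicate gave 8 to 11 for siVPS4A+B#2, 3 to 7 for siVPS4B#1 and 0 to 1 for siVPS4B#2. Differences at no fold threshold and at 2-fold were 8 and 0 for siCTRL#1 against NT (4), 22 and 2 for siCTRL#2 against NT (13), 18 and 2 for siCTRL#2 against siCTRL#1 (11), 25 and 4 between siVPS4A duplexes (13) and 14 and 0 between siVPS4B duplexes (8), and 2 at 2-fold between pairs (12). Other trafficking genes called (6) numbered 10 in DESeq2, 8 to 10 leaving out a replicate, 25 with no fold threshold and 1 at 2-fold.

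Small mean changes after combined silencing turned sign: RAB1A to -0.0269, RAB27B to -0.0739, SNX27 to -0.0276 and SNX6 to -0.0612 under total reads, RAB27B to -0.0143 in edgeR, and leaving out a replicate gave -0.018 to 0.16 for RAB1A (lowest without replicate 3), -0.0688 to 0.0805 for RAB27B (replicate 1), -0.00866 to 0.172 for SNX27 (replicate 3) and -0.0326 to 0.146 for SNX6 (replicate 3, and -0.000305 without replicate 4). The cause of changes beyond fewer libraries or another threshold was not tested. Depth limits RAB34, RAB36 and SNX32, with medians of at most 2 reads.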
